A study of Canis lupus familiaris with 18 samples.

Results

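Of the 84 genes on a canine mesenchymal stem cell RT-qPCR array, 5 belong to the Notch and Wnt signalling pathways by their gene symbols: JAG1, NOTCH1, WNT3A, FZD9 and CTNNB1. These 5 genes were chosen by name, not by their measured values, and their levels were described in mesenchymal stem cells grown from the fat of 9 dogs (cAD-MSCs) at passage 3 (P3) and passage 6 (P6). All 9 donors were healthy female dogs of several breeds, most of them about a year old or younger, and abdominal fat left over from elective spaying was digested with collagenase to obtain the cells. The cells of every donor grew adherent in low-glucose DMEM with 20% fetal bovine serum and antibiotics, with no treatment and no genetic change, so the groups compared are 9 samples at P3 and 9 samples at P6 of the same dogs. The comparison asked how prolonged in vitro culture bears on the expression of these genes. Each culture is a mixed population of adherent cells from fat tissue rather than a clone. Fewer cells of a type and less RNA per cell cannot be told apart in its bulk RNA.

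In Notch signalling, a ligand such as Jagged 1 on 1 cell binds a Notch receptor on its neighbour, the receptor is cut, and its inner part moves to the nucleus and switches on target genes. In canonical Wnt signalling, a secreted Wnt protein binds a Frizzled receptor, which stops the breakdown of β-catenin, and β-catenin then acts on target genes together with TCF/LEF factors. β-catenin also links cadherins to the cytoskeleton at cell contacts, a role that does not depend on a Wnt signal. In mesenchymal stem cells both pathways are known for their part in the choice between bone, cartilage and fat fates.

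In these cultures JAG1, NOTCH1, FZD9 and CTNNB1 were detected at both passages, and WNT3A was detected in 1 of 18 samples. CTNNB1 was the most abundant of the 5, followed by JAG1, NOTCH1 and FZD9, over a span of more than 10 PCR cycles. None of the 5 genes passed the test between P6 and P3. The spread of JAG1 and of FZD9 between dogs was near the middle of the array genes at P3 and below the middle at P6. The dogs with the highest JAG1 at P3 were also the highest at P6.

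The measured value is the threshold cycle (CT), the point in the PCR at which the SYBR Green signal passes a threshold, so an earlier CT means more transcript. A CT above 35 cycles or a well that never crossed was set to 35 and counted as not detected. Levels are given as −ΔCT, the geometric mean CT of ACTB, B2M, HPRT1, PGK1 and RPL13A in a sample minus the CT of the gene, in log2 units, so that samples differing by 1 unit differ 2-fold. Each gene had 1 well per sample, so the SD between donors includes the error of a single well. Levels of different genes are compared on this scale only approximately, since primer assays differ in efficiency.

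Between 75 and 81 of the 84 array genes were detected per sample at P3 and between 72 and 77 at P6, and the reference CT was 14.85 ± 0.508 (SD, n = 9) at P3 and 14.65 ± 0.321 (SD, n = 9) at P6. The genomic DNA control well stayed undetermined in 18 of 18 samples. Of the 6 positive MSC markers on the array (THY1, ENG, CD44, NT5E, ITGB1 and VIM), 5 were detected in every sample, and VIM, an intermediate filament gene of mesenchymal cells, had the highest mean level of the 84 genes at both passages. THY1 was not detected at P3 in donor 9-21. The summed level of the 6 MSC markers was 3.01 to 4.02 on the −ΔCT scale at P3 and 3.45 to 4.09 at P6. Most of this sum was VIM, which alone was 2.83 to 3.94 at P3 and 3.23 to 3.98 at P6. By these sums, markers of other cell types lay lower. The leukocyte pair PTPRC and ITGAX summed to −15.19 to −6.59 at P3 and −19.87 to −15.52 at P6. The adipocyte pair ADIPOQ and LPL summed to −12.49 to −9.33 at P3 and −15.58 to −8.32 at P6. The mural cell markers ACTA2, MCAM and PDGFRB, which cultured stromal cells also express, summed to −2.05 to 1.99 at P3 and −3.40 to 1.81 at P6. By mean level ACTA2 ranked 4th of the 84 genes at both passages, above every MSC marker but VIM. The endothelial markers KDR and VWF summed to −11.60 to −8.06 at P3 and −14.01 to 2.52 at P6.

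Several P6 samples held wells of members or of related genes that stood far from the other donors. In the P6 sample of donor 9-21, ALCAM, HAT1, NOTCH1 and SLC17A5 were not detected although each was detected in the other 17 samples. HDAC1 was also undetermined there, as it was at P3 in donor 7-22, KAT2B crossed at CT 32.26 against 18.57 to 22.22 in the other samples that detected it, and KDR crossed at CT 12.18 against 18.94 to 27.24. In the P6 sample of donor 7-22, BMP2, BMP4, KAT2B and KDR were undetected in that sample alone. In the P6 sample of donor 1-22, PPARG crossed at CT 7.56 against 19.67 to 27.00 in the other 17 samples, and PDGFRB was at its lowest level. The P6 sample of donor 6-22 gave the KDR value of 18.94 and the PPARG value of 19.67. VWF crossed there at CT 22.11, the earliest of the 18 samples. The high NOTCH1 and CTNNB1 of this sample are given with those genes. The part of these wells in the results below was not tested other than by leaving the samples out.

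**Figure D1:**
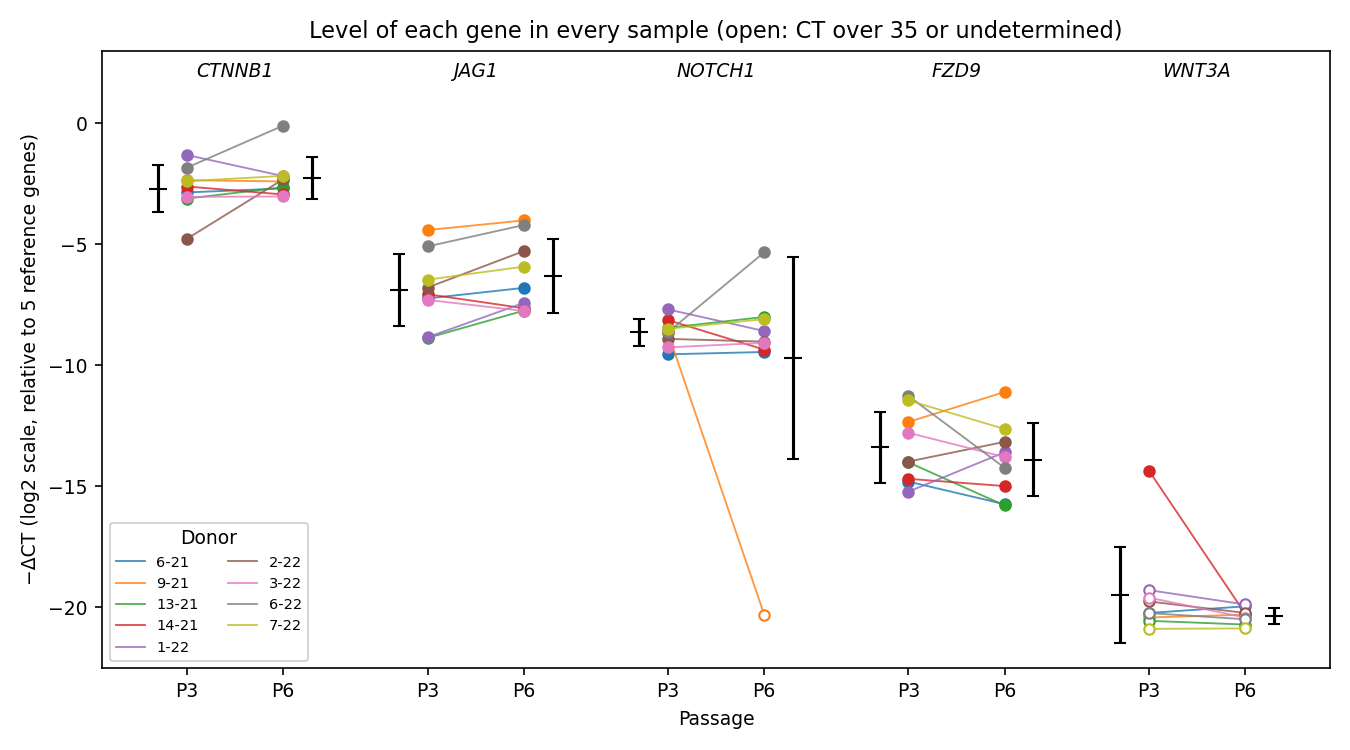
The vertical axis is −ΔCT (log2 scale, relative to 5 reference genes) and each panel position is 1 gene at P3 and at P6, with 1 point per donor, lines joining the samples of a donor, open points for wells that did not cross by 35 cycles, and black bars for the mean ± SD of 9 donors. CTNNB1 lies highest and WNT3A lies at the detection limit in all samples but 1, and the lone open NOTCH1 point is the P6 sample of donor 9-21.

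JAG1, at array position D08, encodes the Notch ligand Jagged 1. It was detected in 18 of 18 samples. At P3 its −ΔCT ran from −8.87 (donor 13-21) through a median of −7.06 to −4.41 (donor 9-21), a 22.0-fold span between dogs. At P6 it ran from −7.75 (donor 3-22) through a median of −6.80 to −4.01 (again donor 9-21). Donors 9-21 and 6-22 had the 2 highest JAG1 levels at both passages, and the ranges of the passages overlapped over most of their length. The mean was −6.89 ± 1.48 (SD, n = 9) at P3 and −6.31 ± 1.51 (SD, n = 9) at P6. These means placed JAG1 37th of the 84 genes at P3 and 31st at P6. Counted from the smallest, its spread ranked 48th of the 84 genes at P3 and 31st at P6.

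WNT3A, at position G12, encodes a secreted Wnt ligand that acts through β-catenin. It crossed before 35 cycles only at P3 in donor 14-21, at CT 28.96, which is 6.04 cycles before the limit. In 16 wells it never crossed, and in the P3 sample of donor 7-22 it crossed late, at CT 36.59. The P6 sample of donor 14-21 was among the undetected ones, so the lone signal was not seen again in the same dog. Detection was thus 1 of 9 samples at P3 and 0 of 9 at P6, and 0 of 9 allows a share of up to 33.3% of samples. WNT3A was the only array gene detected in at most 1 sample and had the lowest mean level of the 84 at both passages. Its −ΔCT at the limit, −20.89 to −19.29 at P3 and −20.87 to −19.88 at P6, moves only with the reference genes of a sample and is an upper bound on its level. At full PCR efficiency the lead of the P3 well of donor 14-21 corresponds to at least 65.8-fold more template than in a well at the limit.

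NOTCH1, at position E09, encodes the Notch1 receptor. At P3 its −ΔCT was −9.55 in donor 6-21, −8.63 at the median and −7.69 in donor 1-22, a 3.62-fold span. Its P3 mean was −8.64 ± 0.559 (SD, n = 9), and this spread was the 10th smallest of the 84 genes. At P3 NOTCH1 was therefore a moderately expressed gene of similar level in every dog. At P6 its −ΔCT was −9.45 to −8.00 in 7 donors, −5.33 in donor 6-22 and −20.30, the detection limit, in donor 9-21, whose well crossed at CT 38.59. The P6 mean was −9.69 ± 4.17 (SD, n = 9) with that well at the limit and −8.36 ± 1.34 (SD, n = 8) over the wells that detected it. The spread at P6 over the 9 samples ranked 70th of the 84 genes counted from the smallest.

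FZD9, at position C02, encodes Frizzled 9, a Wnt receptor. It was detected in 18 of 18 samples, at CT 25.56 to 30.93 at P3 and 25.80 to 30.78 at P6. Its −ΔCT at P3 was −15.22 in donor 1-22, −13.98 at the median and −11.27 in donor 6-22. At P6 it was −15.79 in donor 13-21, −13.79 at the median and −11.10 in donor 9-21. The human FZD9 gene has no introns, so that genomic DNA can be amplified by its primers, but the genomic DNA control was undetermined in all 18 samples. The mean was −13.39 ± 1.48 (SD, n = 9) at P3 and −13.89 ± 1.51 (SD, n = 9) at P6, ranks 67 and 66 of the 84 genes. Counted from the smallest, the spread of FZD9 ranked 47th of the 84 genes at P3 and 32nd at P6.

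CTNNB1, at position B06, encodes β-catenin, the effector of canonical Wnt signalling and a part of cell junctions. It was detected early in 18 of 18 samples. At P3 its −ΔCT was −4.77 in donor 2-22, −2.61 at the median and −1.31 in donor 1-22. At P6 it was −3.02 in donor 3-22, −2.40 at the median and −0.093 in donor 6-22. The P6 sample of donor 6-22 stood above the others, the next being −2.17, and the remaining 8 P6 samples spanned less than 1 unit. The mean was −2.69 ± 0.968 (SD, n = 9) at P3 and −2.27 ± 0.873 (SD, n = 9) at P6, ranks 10 and 9 of the 84 genes.

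Set side by side within each sample, where the reference genes drop out of the difference, the 5 genes kept nearly the same order. CTNNB1 crossed before JAG1 in 18 of 18 samples, by 4.12 ± 1.43 cycles (SD, n = 18). JAG1 crossed before NOTCH1 in 16 of 18 samples. The exceptions were the P3 samples of donors 13-21 and 1-22, in which NOTCH1 came first by 0.42 and 1.15 cycles. NOTCH1 crossed before FZD9 in 17 of 18 samples, by 5.28 ± 1.72 cycles (SD, n = 17) where both were detected, the exception being the undetected NOTCH1 well. FZD9 crossed before WNT3A in 17 of 18 samples, and in the P3 sample of donor 14-21 WNT3A came first by 0.34 cycles. Of the neighbours in this order, JAG1 and NOTCH1 had overlapping ranges over the dogs at both passages, and CTNNB1 and JAG1 and also FZD9 and WNT3A overlapped at P3. With the undetected well at its limit, NOTCH1 also overlapped FZD9 at P6.

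For the Notch ligand and its receptor, JAG1 came 1.75 ± 1.72 cycles (SD, n = 9) before NOTCH1 at P3, with a range of −1.15 to 4.25 cycles. At P6 JAG1 came 1.77 ± 1.07 cycles (SD, n = 8) before NOTCH1 in the donors with both detected, with a range of 0.26 to 3.74 cycles. At equal assay efficiency these differences correspond to 3.35-fold and 3.40-fold more JAG1 than NOTCH1 transcript. The difference was larger at P6 in 6 of these 8 donors, and its mean change of 0.34 ± 1.43 cycles (SD, n = 8) was smaller than the spread between donors.

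**Figure D2:**
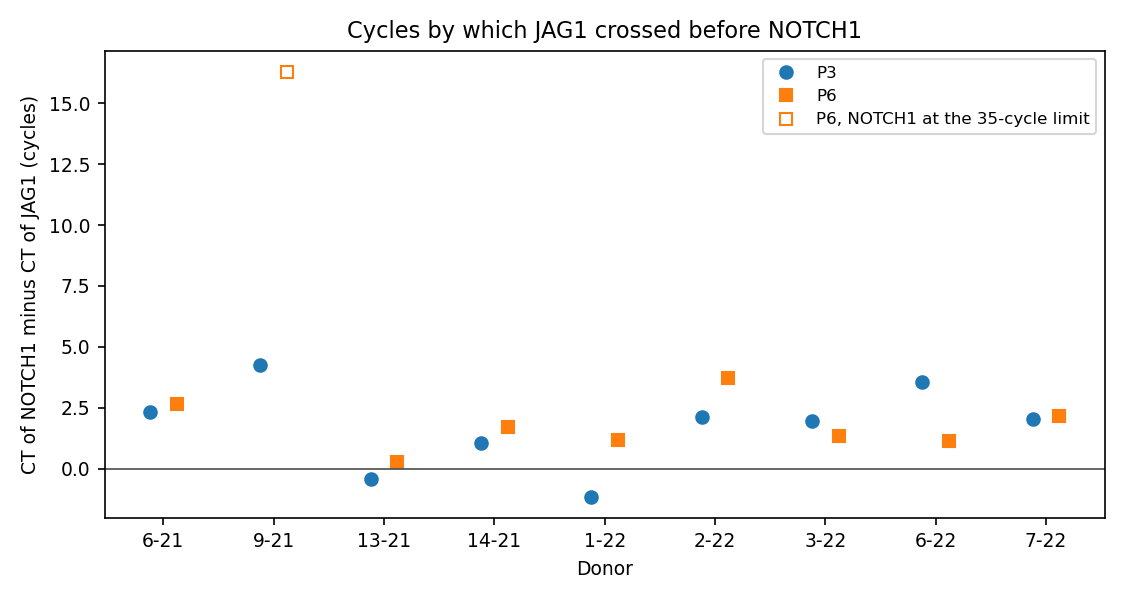
For each of the 9 donors on the horizontal axis, the vertical axis gives the CT of NOTCH1 minus the CT of JAG1 in cycles, so points above 0 are samples in which JAG1 crossed first. Circles are P3, squares are P6 and the open square is the sample of donor 9-21 with NOTCH1 at the 35-cycle limit; 7 of 9 P3 points and 9 of 9 P6 points lie above 0.

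For the Wnt genes, the receptor FZD9 was far below the effector CTNNB1 in every sample. CTNNB1 came 10.7 ± 1.65 cycles (SD, n = 9) before FZD9 at P3 and 11.6 ± 1.66 cycles (SD, n = 9) at P6. The gap was wider at P6 in 6 of 9 donors, by a mean of 0.92 ± 2.07 cycles (SD, n = 9), again less than the spread between donors. FZD9 and WNT3A are the only Frizzled and Wnt genes on the array, so these values do not describe the other family members.

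P6 was compared with P3 by limma over the 84 array genes without a donor term, with p-values adjusted by the Benjamini-Hochberg method. Of the 5 Notch and Wnt genes, 0 were called at an adjusted p under 0.05, and 0 had an unadjusted p under 0.05. Over the whole array 1 gene was called, the leukocyte gene PTPRC, lower at P6 (1.19% of 84 genes), and 5 genes (5.95%) had an unadjusted p under 0.05. With the donor as a block 2 genes were called (2.38%), PTPRC and ITGAX, and again 0 of the 5. A difference of means of at least 2-fold was found for 1 of the 5 (NOTCH1, lower at P6) against 36.9% of the array genes in either direction and 25.0% in the lower direction.

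JAG1 was 0.59 higher at P6 on the log2 scale (95% interval −0.89 to 2.06), and higher in 7 of 9 donors. Without the P6 samples of donors 9-21 and 6-22 the JAG1 difference was −0.043. The P3 samples of these dogs, the 2 highest in JAG1, stayed in that fit, so its value mixes passage with donor. Within these dogs JAG1 was higher at P6 by 0.40 and 0.88. CTNNB1 was 0.42 higher at P6 (95% interval −0.54 to 1.39), and higher in 6 of 9 donors. Both intervals include 0 and a 2-fold rise. FZD9 differed by −0.50 (95% interval −1.97 to 0.97) and was lower in 6 of 9 donors, while its median differed by 0.19 in the opposite direction. WNT3A differed by −0.87 (95% interval −2.27 to 0.54), a value that turns on the single detected P3 well. Without donor 14-21 the WNT3A difference was −0.24, with every well at the limit, so that it came from the reference genes alone. The adjusted p from limma was 0.873 for each of these 4 genes and for NOTCH1. Exact permutation of single genes used 48620 divisions of the samples, two-sided and without regard to donor. Its p was 0.151 for WNT3A and 0.369 to 0.667 for the other members.

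NOTCH1 had a difference of means of −1.05 (95% interval −3.88 to 1.78), the widest interval of the 5 genes, and its direction rested on 1 well. It was lower at P6 in 4 donors and higher in 5. Donor 9-21 differed by −11.64 with its P6 well set to the limit. That value is the smallest drop possible only if the well reports NOTCH1 RNA, which was not tested. Other wells of the same sample were also odd, as described above. Donor 6-22 differed by 3.29, whereas the other 7 donors differed by −1.22 to 0.45. Without the P6 sample of donor 9-21 the difference was 0.28 (95% interval −0.78 to 1.33), and without the P6 samples of both donors it was −0.16 (95% interval −0.86 to 0.55). In none of these settings did NOTCH1 pass the test, with adjusted p of 0.894 and 0.919 from limma.

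The donor labels end in 21 for 4 dogs and in 22 for 5, and their meaning is not given. NOTCH1 differed by −3.08 between the passages within the first set and by 0.57 within the second, and the undetected well lies in the first set. Within the same sets JAG1 differed by 0.35 and 0.78, CTNNB1 by 0.063 and 0.71, FZD9 by −0.44 and −0.54, and WNT3A by −1.42 and −0.43. JAG1, CTNNB1 and FZD9 kept their direction in both sets. WNT3A was not detected in any well of the donors ending in 22, so its difference there comes from the reference genes alone.

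**Figure D3:**
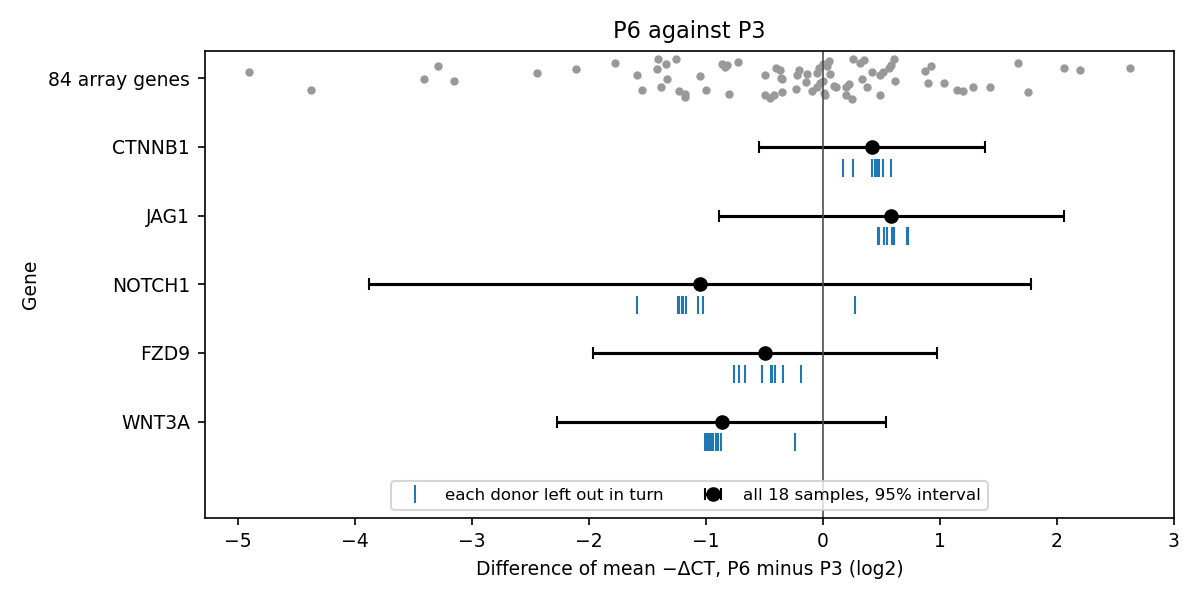
The horizontal axis is the difference of mean −ΔCT, P6 minus P3 (log2), with grey points for the 84 array genes, black points with 95% intervals for the 5 Notch and Wnt genes over all 18 samples, and blue ticks for the value with each donor left out in turn. All 5 intervals cross 0, and the ticks of NOTCH1 run from −1.59 to 0.27 because 1 of them leaves out donor 9-21.

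The number of samples with a CT under 35 was the same at P3 and P6 for JAG1, FZD9 and CTNNB1 and differed by 1 sample for NOTCH1 and WNT3A. Differences of at most 1 sample cannot pass a test, and Fisher's exact test gave p = 1 for each. Of the 84 genes, 0 (0.0%) passed it after adjustment and 2 genes, neither of them a member, had an unadjusted p under 0.05.

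Dogs with more JAG1 at P3 tended to have more JAG1 at P6. Over the 9 donors the P3 and P6 levels of JAG1 correlated with Pearson's r = 0.877 (exact permutation p = 0.00109 over 362880 pairings, adjusted p = 0.0354 over 65 genes) and Spearman's rho = 0.867 (exact permutation p = 0.00451, adjusted p = 0.138). The 65 genes are those detected in at least 17 of the 18 samples, and the correlation was computed after the values had been seen. Of the 65 genes 3 (4.62%) passed the adjusted threshold for r, JAG1, GDF15 and THY1, against 0 for rho, where 16 had an unadjusted p under 0.05. THY1 was undetected in 1 P3 sample. Leaving out donors 9-21 and 6-22, the 2 farthest from the median at P3, gave r = 0.624 over 7 donors (exact permutation p = 0.113), so the relation rests in large part on these dogs. With any single donor left out r was 0.812 to 0.915. The donors of each label ending were too few for a correlation of their own.

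Of the other members, NOTCH1, FZD9 and CTNNB1 did not pass this test over all 9 donors, and WNT3A, with 1 detected well, was not tested. FZD9 gave r = 0.499 (exact permutation p = 0.171, adjusted p = 0.400) and rho = 0.433. For CTNNB1 r was 0.370 (exact permutation p = 0.257, adjusted p = 0.473) with rho = 0.533, and r was 0.845 over 7 donors without 1-22 and 2-22, the 2 farthest at P3 (exact permutation p = 0.0139). NOTCH1 gave r = 0.0682 with the undetected well included and rho = 0.417. The median r of the 65 genes was 0.370, and 50 of the 65 had r above 0, so a positive correlation between the passages of a dog was common on this array.

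**Figure D4:**
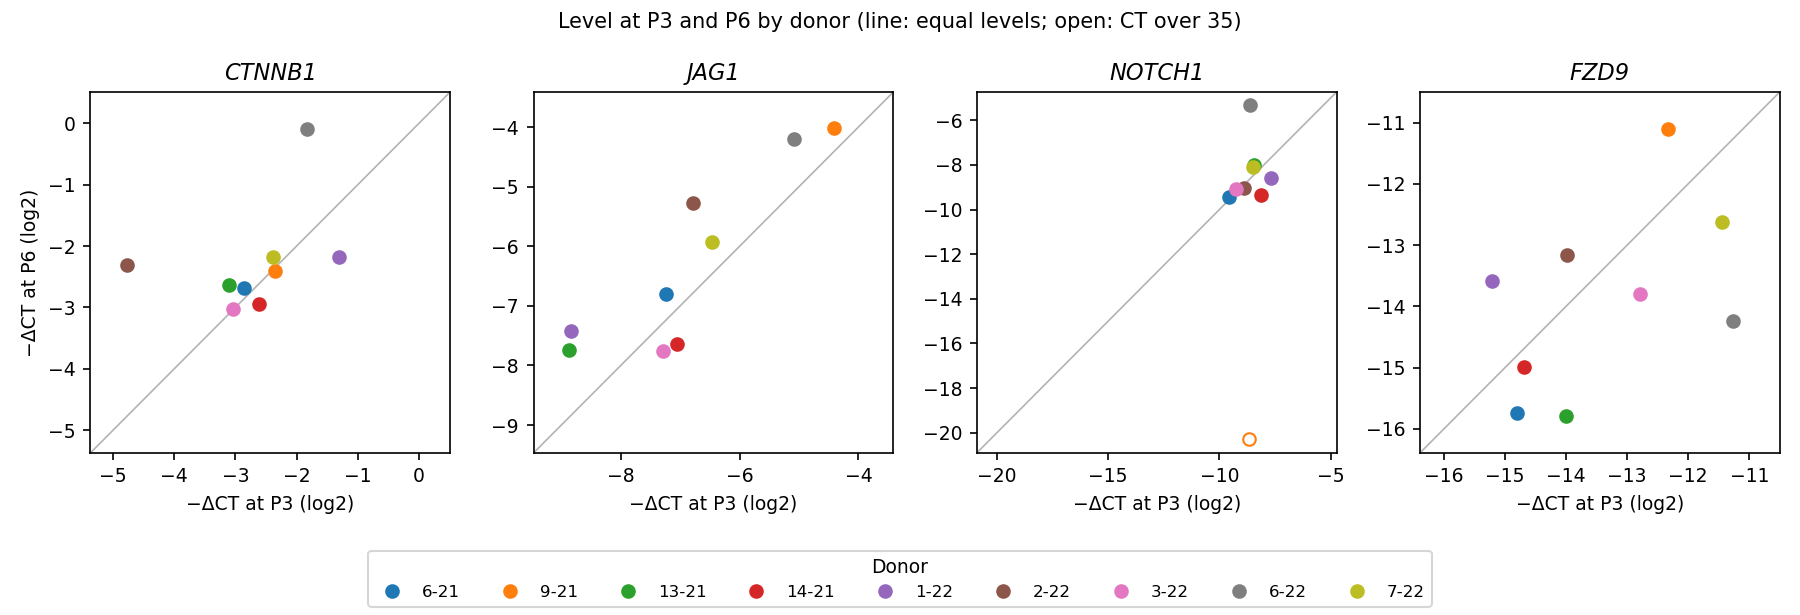
Each panel plots −ΔCT at P6 against −ΔCT at P3 (both log2) for 1 gene, with 1 coloured point per donor, a grey line of equal levels and an open point for the NOTCH1 well at the limit. The JAG1 points rise along the line, with donors 9-21 and 6-22 at the top right, and in the NOTCH1 panel donors 6-22 and 9-21 lie apart from the other 7.

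Individual donors also showed how the members went together. At P3 donors 9-21, 6-22 and 7-22 had the 3 highest levels of both JAG1 and FZD9. At P6 donor 9-21 had the highest JAG1 (−4.01) and FZD9 (−11.10) of the 9 dogs, in the same sample in which NOTCH1 was not detected. The P6 sample of donor 6-22 had the highest NOTCH1 (−5.33, the next being −8.00) and CTNNB1 (−0.093) and the second highest JAG1 (−4.20), while its FZD9 (−14.23) was below the median. The median deviation of this sample from the P6 medians over the 84 genes was −0.26, with 14 genes highest and 9 lowest there. Its early VWF, KDR and PPARG wells are given above, and whether they bear on its NOTCH1 and CTNNB1 levels was not tested.

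The array genes most like each member were found from the SD of the CT difference between a pair of genes over the 18 samples, among 50 other genes detected in every sample, where a smaller SD means a closer pattern. For JAG1 they were ENG (1.24), the co-receptor endoglin, ICAM1 (1.24), an adhesion molecule, and PTK2 (1.31), focal adhesion kinase, against a median of 2.03 over all 50. For FZD9 they were ICAM1 (1.18), ACTA2 (1.29), smooth muscle actin, and JAG1 (1.31), against a median of 1.91. JAG1 and FZD9 thus had each other among their 4 nearest genes. For CTNNB1 they were SMURF2 (0.677), ENG (0.759) and SMURF1 (0.766), against a median of 1.63. SMURF1 and SMURF2 encode ubiquitin ligases. A gene of small spread, such as PTK2 or the SMURF genes, can reach about the partner's own SD of −ΔCT without following its pattern. Over the 18 samples that SD was 1.48 for JAG1, 1.47 for FZD9 and 0.92 for CTNNB1.

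Other array genes tied to Notch signalling were the acetyltransferase gene KAT2B and the corepressor gene HDAC1, whose products take part in Notch target transcription, and the known targets ACTA2, PDGFRB and SOX9. None of these 5 genes was called in either direction, with or without the donor block, with adjusted p of 0.873 to 0.996 from limma. Their median difference P6 minus P3 was −0.23 on the log2 scale, against −0.046 for all 84 genes, with 1 mean higher and 4 lower at P6, against 39 higher and 45 lower of all 84. Past a 2-fold difference of means were KAT2B (−3.16), whose P6 wells include the 2 odd ones described above, and PDGFRB (−1.23), which in donor 1-22 was −4.81 on the −ΔCT scale at P3 and −11.97 at P6. HDAC1 had 1 undetected well at each passage, at P3 in donor 7-22 and at P6 in donor 9-21, both set to the limit. ACTA2 differed by −0.23, HDAC1 by −0.022 and SOX9 by 0.034.

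Of the array genes tied to Wnt signalling, CD44, ABCB1, MITF, RUNX2, VEGFA, BMP4 and SOX9 are known targets and PPARG, the master regulator of fat cell formation, is known to be held down by Wnt signals. None of these 8 was called in either direction, with or without the block, with adjusted p of 0.873 to 0.996 from limma. Their median difference was −0.083, with 4 means higher and 4 lower at P6. Past a 2-fold difference of means were PPARG (2.63, with a P6 SD of 6.32 over 9 donors) and BMP4 (−1.18, undetected at P6 in donor 7-22). Their medians differed in the opposite direction, by −0.71 for PPARG and 1.22 for BMP4. PPARG was higher at P6 in 6 donors and lower in 3, and BMP4 was higher in 5 and lower in 4. The P6 spread of PPARG includes the early well of donor 1-22. VEGFA differed by −0.80, RUNX2 by −0.35, MITF by −0.20, ABCB1 by 0.20 and CD44 by 0.61. The median of ABCB1 differed by 1.51, with 7 donors higher and 2 lower at P6. Its P3 level was −2.84 in donor 1-22 against −10.73 to −7.17 in the other donors. The 5 members themselves had a median difference of −0.50, with 2 means higher and 3 lower.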

How the data were processed

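RNA of cAD-MSCs from 9 dogs at P3 and P6 was measured by RT-qPCR with SYBR Green on a 96-well array, which holds 84 genes, 5 reference genes and 7 controls in single wells. The authors deposited CT values in cycles, without a limit applied, and marked a well with no crossing as undetermined. They also deposited mean CT and ΔCT per passage from their array software, which differed from the means computed here by at most 0.0049 cycles, and fold changes of P6 over P3, which were not used. The software and its CT limit come from the study's methods. No read depth applies to CT values, and the number of donors limits the precision.

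For this re-analysis a limit of 35 was put on CT (undetermined wells included), ΔCT was taken against the geometric mean of the 5 reference genes, and −ΔCT was tested with limma 3.58.1 in R 4.3.3 (two-sided, no donor block, since the test in the study's methods is unpaired), with Benjamini-Hochberg adjustment over 84 genes, a threshold of 0.05 and 95% intervals from the moderated fit. The exact permutation test of P6 against P3 and Fisher's exact tests were also run in R. Exact permutations of the donor correlations and the figures were made in Python with numpy 2.4.6, scipy 1.17.1 and matplotlib 3.10.9. The fit was checked on simulated data. Samples were assigned to passage and donor from their labels, and none was left out.

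The P3 and P6 samples are paired because they come from the same dog. The deviations of a dog's samples from the passage means had a median r of 0.161 (range 0.066 to 0.643, over 0.1 in 6 of 9 dogs), while samples of different dogs had a median r of −0.034.

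The 5 members were taken by gene symbol and the gene lists from textbook knowledge, not for how the genes moved. Earlier results of these data were nevertheless known when the members, lists and tests were chosen. Named genes are the members, the Notch-linked, Wnt-linked and cell type marker lists, the reference genes, genes called with or without the block, and the 3 genes most like each member detected in every sample. Genes named for an odd well (ALCAM, HAT1, SLC17A5, BMP2 and GDF15 for its correlation) were chosen after their values were seen. The alternatives were the donor block, an exact permutation test, the methods' test on 2^-ΔCT, robust regression, medians, CT limits of 40 and 32 cycles, other reference values, a filter on mean CT, the donors of each label ending, and each donor left out in turn. Leaving out single P6 samples, or donors 9-21 and 7-22, was added after seeing the data. All 5 symbols occur in the RefSeq gene table given, but no genome build is named for the array, so neither coordinates nor sequences are printed.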

Additional observations from a re-analysis of the deposited data

Results flagged for a closer look

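In 3 of the 10 groups of 9 samples (5 genes at 2 passages) the gap between the most extreme sample and its neighbour took up more of the whole range than Dixon's critical value for 9 samples, which chance exceeds in about 1 in 20 groups of measured values. The WNT3A groups do not meet that condition, since all but 1 of their values are set by the detection limit. NOTCH1 at P6 was lowest in donor 9-21, with −ΔCT of −20.30, the detection limit, and the next lowest was −9.45. WNT3A at P3 was highest in donor 14-21, with −ΔCT of −14.35 in the only well that detected it, and the next value, −19.29, was at the limit. CTNNB1 at P6 was highest in donor 6-22, with −ΔCT of −0.093, and the next highest was −2.17.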

How the results depend on the processing

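The differences of means of CTNNB1, FZD9 and WNT3A kept their direction and stayed without a call under every alternative run for them, with values of 0.063 to 0.71, −0.85 to −0.19 and −3.00 to −0.24. For WNT3A this direction rests on 1 detected P3 well and on the reference genes, so its constancy does not describe the gene's level. The differences of medians, which had no test, were 0.26 for JAG1, 0.21 for CTNNB1, −0.39 for NOTCH1, −0.066 for WNT3A and 0.19 for FZD9, the last opposite in sign to its mean. WNT3A could not be tested under the filter of a mean CT of at most 30. JAG1 ranged from −0.043 to 0.78, the lowest and only negative value being that without the P6 samples of donors 9-21 and 6-22. That setting kept the P3 samples of these dogs, the 2 highest in JAG1, and so broke the balance of donors between the passages. NOTCH1 ranged from −3.08 to 0.79. It was 0.57 in the donors ending in 22, 0.79 by the methods' test on 2^-ΔCT, 0.26 without donors 9-21 and 7-22, 0.28 without the P6 sample of donor 9-21, and −1.59 to 0.27 with each donor left out in turn, the positive value being that without donor 9-21. The other differences with 1 donor left out were 0.47 to 0.73 for JAG1, 0.17 to 0.58 for CTNNB1, −0.76 to −0.19 for FZD9 and −1.01 to −0.24 for WNT3A. The median of the detected genes as reference lowered the median of all genes by 0.16.

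With the donor as a block the number of array genes called was 2 in place of 1, and the block changed no call of a member (adjusted p 0.741 to 0.746, limma). The count was 2 with the median of the detected genes as reference, with the filter on mean CT, without the P6 sample of donor 6-22 and without the P6 samples of donors 9-21 and 6-22. It was 3 with robust regression. It was 0 without ACTB and B2M, in either set of donors by label ending, without donors 9-21 and 7-22, by the exact permutation test and by the methods' test after adjustment. With each donor left out it was 0 to 2 (0 without donor 6-21, 13-21, 3-22, 6-22 or 7-22 and 2 without donor 14-21 or 1-22), the cause of these changes was not tested, and 0 of the 5 members were called in any setting. Precision was limited by 1 well per gene and 9 donors. With the block the 95% interval was −0.088 to 1.26 for JAG1 and −0.41 to 1.26 for CTNNB1, both narrower than without it.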
